A study of Homo sapiens with 4 samples.

Results

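Extracellular ATP, ADP, UTP and UDP-glucose act on cells through purinergic receptors: the P2X family are ATP-gated cation channels and the P2Y family are G protein-coupled receptors. Ectonucleotidases on the cell surface take these ligands apart, ATP and ADP to AMP and AMP to adenosine, and adenosine deaminase turns adenosine into inosine. Monocytes and macrophages are known to carry several P2 receptors and the ectonucleotidase CD39, and to answer extracellular ATP with calcium entry, chemotaxis and inflammasome activation.

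The genes described are 10: P2RY2, P2RY8, P2RY11, P2RY13 and P2RY14, grouped as P2Y receptors by symbol, the P2X receptors P2RX1, P2RX4 and P2RX7, the ectonucleotidase ENTPD1 and the adenosine deaminase ADA. They are all the probe sets whose platform annotation gives one of these symbols alone, which were 14 probe sets of 9 genes among 54613 probe sets and 19775 genes. The list was chosen by gene role and with the knock-down minus empty-vector differences of these same arrays in view, so the values below are a description and carry no test. P2RY11 had no probe set of its own: 1 probe set lists it together with the read-through gene PPAN-P2RY11, and no value is given for it.

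The knock-down cells were U937, a human myelomonocytic line from a histiocytic lymphoma, carrying the shPIR#7 short hairpin against PIR in the lentiviral vector pSICO-R. PIR encodes pirin, a nuclear iron-binding protein that binds the NF-kB partner BCL3. The comparison cells were U937 with the empty pSICO-R vector, and no second hairpin was analysed here. Each condition was 1 pool of RNA from 3 extractions, hybridised to 2 Affymetrix HG-U133 Plus 2.0 arrays, so the errors below are SDs between 2 arrays of the same RNA and the comparison is between 2 pools.

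Values are the authors' linear signals in arbitrary units. Differences are knock-down minus empty vector on the scale log2(signal + 18), which understates the change of dim genes. The brightness limit is the 60th percentile of an array's signal, and a gene or probe set counts as measured if 1 pool or both had each array at or above it. The size rule asked for pools at least 1 apart (2-fold), for each of the 4 differences between a knock-down and an empty-vector array to reach 0.5 with the same sign, and for a higher pool with both arrays at the limit. Where a gene had several probe sets, the brightest stood for it. A group with 1 RNA pool gives no p-value, and less RNA per cell cannot be told apart from fewer cells expressing a gene.

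PIR gave 83.4 and 91.5 in the knock-down pool, against 1812.9 and 1881.7 in the empty-vector pool. The hairpin's target was thus lower on both knock-down arrays (log2 difference -4.15). The knock-down arrays had median signals of 62.7 and 68.6, against 70.9 and 72.2 for empty vector, and GAPDH 3′/5′ ratios of 0.98 and 1.00, against 0.959 and 1.02. Of 10 monocytic markers, 7 reached the limit in each pool (LYZ, CSF1R, ITGAX, CD4, SPI1, CEBPA, TYROBP), while CD14, MPO and FCGR1A did not. The summed signal of the 10 was 40358 and 44779 with knock-down, against 38747 and 39397 with empty vector, and its part in the results was not tested. None of 4 T cell, 5 erythroid and platelet or 4 epithelial markers reached the limit, and of 4 B cell markers CD79A and PAX5 did.

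Of the 8 measured members, 3 met the size rule with the knock-down pool higher (ENTPD1, P2RX4 and P2RY13) and none with it lower. Over all 10288 measured genes the rule was met as higher by 2.44% and as lower by 1.1%. Because the members were picked with these differences known, nothing is read from the gap between their count and that background. All 8 differences were positive, as were 55.2% of those over all measured genes, and their median was 0.62, beside 0.05 over all measured genes. P2RY13 counted as measured only through the knock-down pool. Among the 7 members bright in both pools the median was 0.53 and 2 met the rule, beside a median of 0.04 and 1.65% over the 9624 genes bright in both. In 7 of the 8 members both knock-down arrays lay above both empty-vector arrays, as they did in 40.9% of measured genes. At the level of probe sets, 5 of 11 measured were called higher and none lower, beside 2.39% higher and 1.42% lower of all measured probe sets with 1 symbol.

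**Figure D1:**
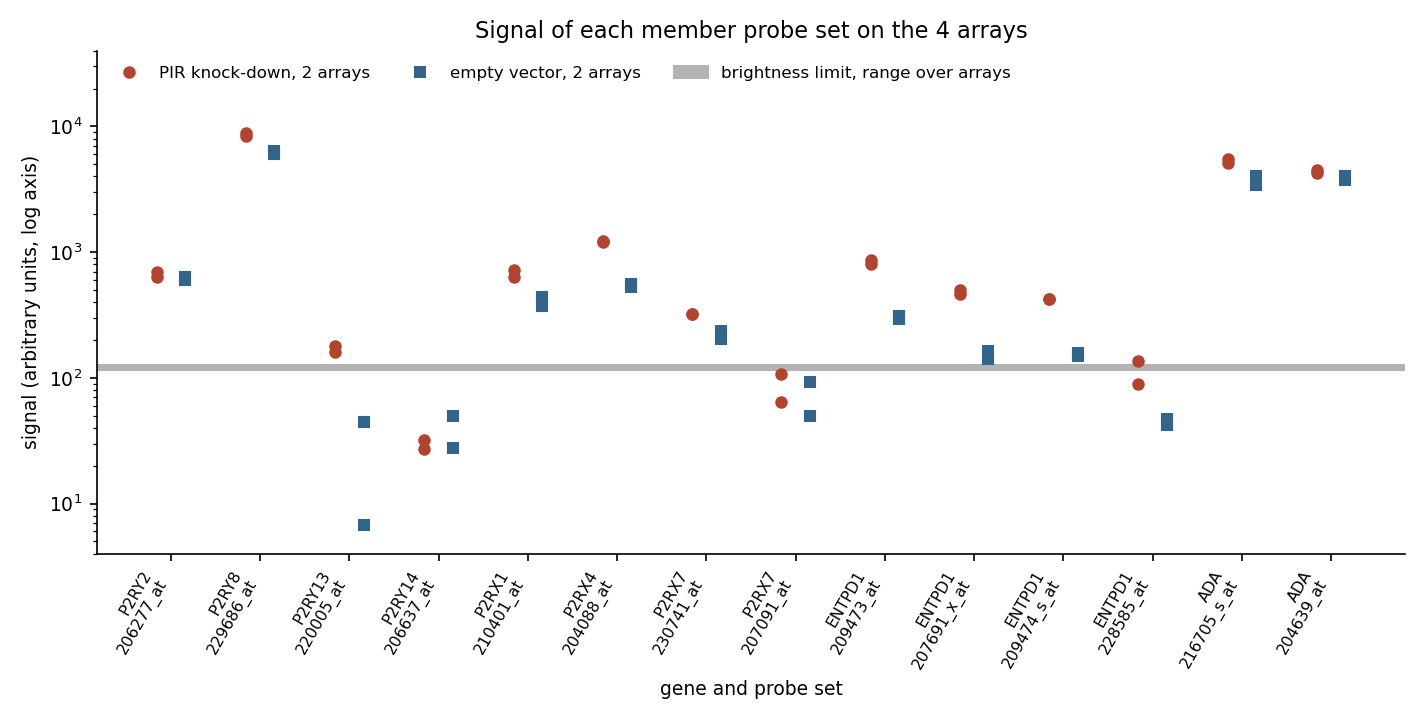
Signal of the 14 probe sets (x axis) on the 4 arrays (y axis, arbitrary units, log axis), with PIR knock-down as circles, empty vector as squares and the brightness limit as a grey band. ENTPD1 209473_at sits at 807.7 and 867.5 in the knock-down pool, above 293.4 and 308.0 in the empty-vector pool, while P2RY2 overlaps between the pools.

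Among the P2Y receptors, P2RY13 met the size rule, from empty-vector signals below the brightness limit. It encodes a receptor for ADP that couples to inhibitory G proteins. The probe set 220005_at gave 160.5 and 179.6 in the knock-down pool, against 6.8 and 44.5 in the empty-vector pool. The 2 pools did not overlap, and the empty-vector signals differed several-fold from each other. The log2 difference was 2.25 (4.77-fold), with array-by-array differences from 1.51 to 2.99. Without empty-vector replica 1 it was 1.59, without empty-vector replica 2 it was 2.92, and with no pseudocount it was 3.29. Set against the brightness limit of the empty-vector arrays in place of their signals, the knock-down pool was 1.31-fold higher. At the 75th percentile as limit P2RY13 was no longer measured.

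P2RY8, a G13-coupled receptor known for confining B cells in germinal centres, was bright on every array. It is grouped here by its symbol and is not an established nucleotide receptor. It gave 8434.6 and 8803.3 in the knock-down pool, against 5980.5 and 6328.6 in the empty-vector pool. Both knock-down arrays were higher, by a log2 difference of 0.48 (1.40-fold, array-by-array 0.41 to 0.56), which did not meet the rule. P2RY2, the receptor for ATP and UTP, gave 629.3 and 691.2 in the knock-down pool, against 635.5 and 599.7 in the empty-vector pool. Its arrays overlapped and the log2 difference was 0.09, within the spread between arrays. P2RY14, the receptor for UDP-glucose, read 27.1 and 31.8 in the knock-down pool, against 27.7 and 49.3 in the empty-vector pool. All 4 signals lay below the brightness limit and overlapped, so P2RY14 was not counted as measured.

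Among the P2X channels, P2RX4 was the member that met the size rule. It encodes an ATP-gated, calcium-permeable channel that in macrophages sits largely in lysosomes. Its signals were 1208.5 and 1218.8 in the knock-down pool, against 559.0 and 529.8 in the empty-vector pool (1214 ± 7.28 against 544.4 ± 20.6, SD, n = 2 arrays each). The arrays of a pool lay close together and the pools far apart, with a log2 difference of 1.13 (2.19-fold) and array-by-array differences from 1.09 to 1.17. It was the member nearest the 2-fold limit on its upper side.

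P2RX1, a fast-desensitising ATP-gated channel best known from platelets and smooth muscle, was the member nearest the limit on its lower side. It gave 717.9 and 639.0 in the knock-down pool, against 443.4 and 376.0 in the empty-vector pool. Both knock-down arrays were higher, with a log2 difference of 0.71 (1.63-fold) and array-by-array differences from 0.51 to 0.90, and it met the rule only when the limit was set to 1.5-fold. P2RX7, the channel that opens at high ATP and triggers the NLRP3 inflammasome, read 324.0 and 322.8 on 230741_at in the knock-down pool, against 202.4 and 235.4 in the empty-vector pool. Its log2 difference was 0.53 (1.44-fold) and did not meet the rule. The second P2RX7 probe set, 207091_at, stayed below the brightness limit on all 4 arrays and overlapped between the pools (64.8 and 106.7 with knock-down, against 49.9 and 92.5 with empty vector).

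The ectonucleotidase ENTPD1, known as CD39, hydrolyses extracellular ATP and ADP to AMP, and was the member with the most probe sets. Its brightest, 209473_at, gave 867.5 and 807.7 in the knock-down pool, against 308.0 and 293.4 in the empty-vector pool (837.6 ± 42.3 against 300.7 ± 10.3, SD, n = 2 arrays each). The pools were well apart, with a log2 difference of 1.42 (2.68-fold) and array-by-array differences from 1.34 to 1.51. The next, 207691_x_at, gave 500.3 and 460.7 in the knock-down pool, against 140.6 and 164.4 in the empty-vector pool, a difference of 1.55; its suffix marks probes that may also match other transcripts. The third, 209474_s_at, gave 424.2 and 427.2 in the knock-down pool, against 149.0 and 159.0 in the empty-vector pool, a difference of 1.37. All 3 met the size rule. The fourth, 228585_at, gave 90.0 and 136.2 in the knock-down pool, against 46.9 and 42.2 in the empty-vector pool. Its log2 difference of 1.05 had the same sign, but only 1 knock-down array reached the limit, so it was not counted as measured.

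ADA, which deaminates adenosine inside the cell and at its surface, was bright on all arrays with both of its probe sets. The brighter, 216705_s_at, gave 5468.3 and 5076.9 in the knock-down pool, against 3997.6 and 3412.9 in the empty-vector pool, a log2 difference of 0.51 (1.42-fold). The second, 204639_at, gave 4502.4 and 4253.6 in the knock-down pool, against 3763.8 and 4001.1 in the empty-vector pool. Here the difference was only 0.17 (1.13-fold), so the sign was shared by the probe sets of ADA and the size was not, and neither met the rule.

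**Figure D2:**
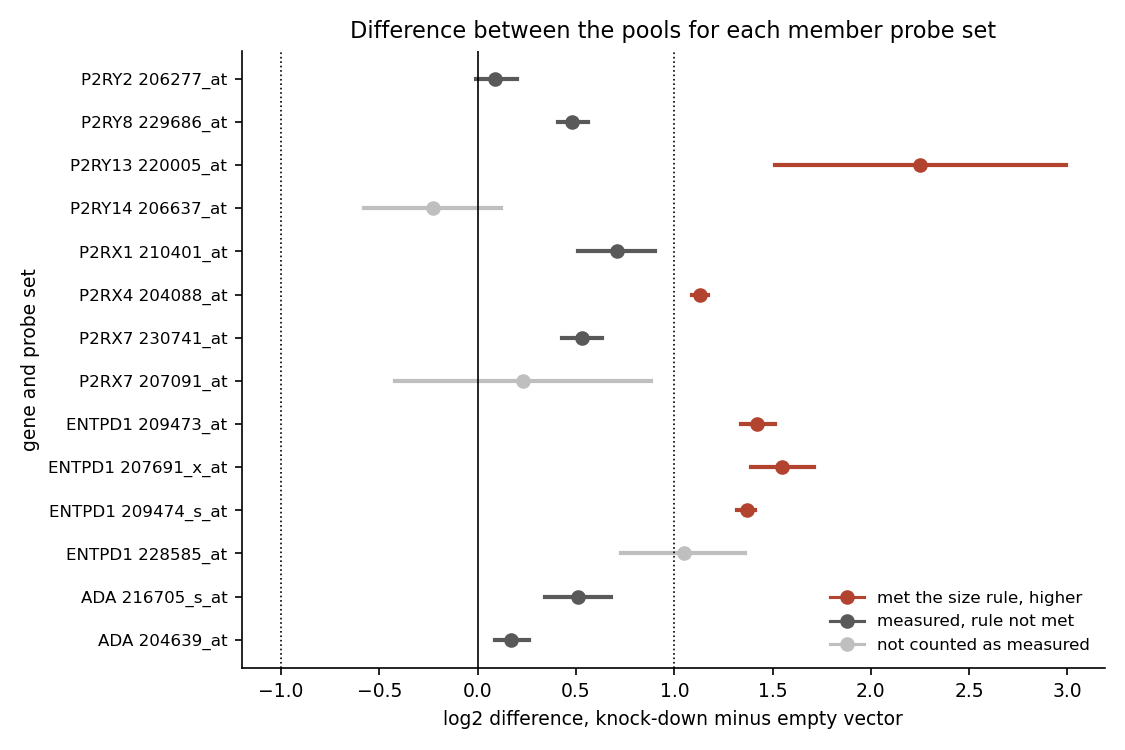
Log2 difference, knock-down minus empty vector (x axis), of each probe set (y axis). Points are the difference of pool means, lines span the 4 array-by-array differences, and dotted lines mark 2-fold. The 3 measured ENTPD1 probe sets lie at 1.37 to 1.55 and P2RX4 at 1.13, while the line of P2RY13 runs from 1.51 to 2.99.

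**Figure D3:**
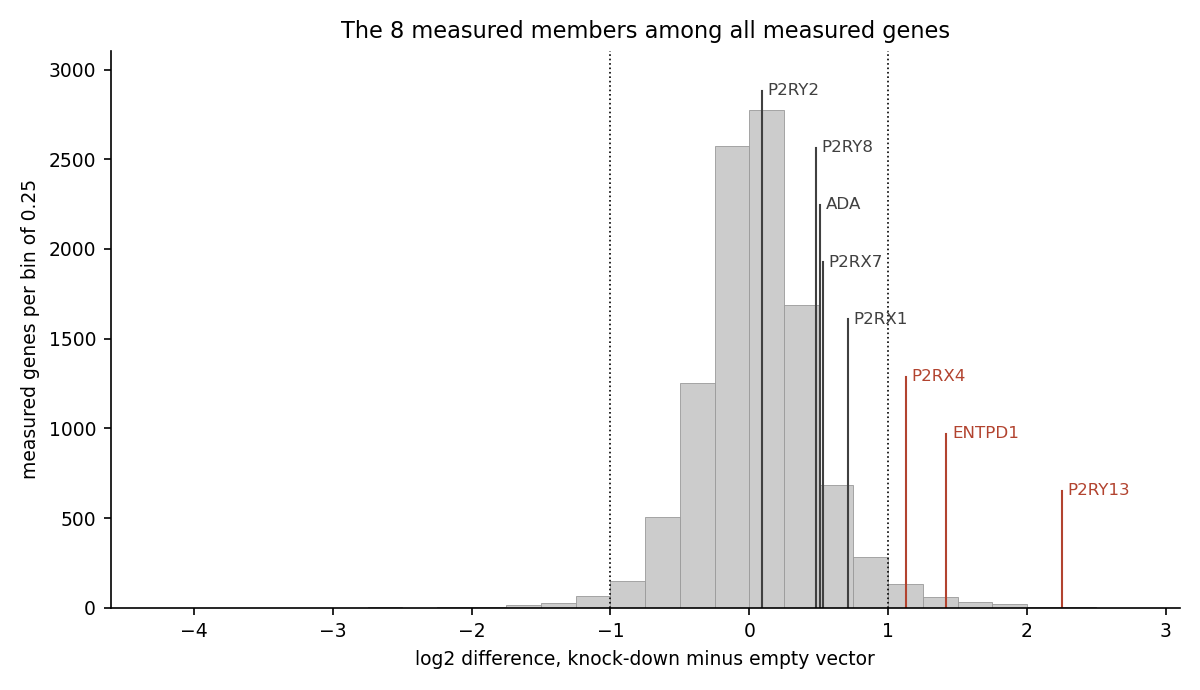
Number of measured genes (y axis) per bin of log2 difference, knock-down minus empty vector (x axis), with vertical lines at the 8 measured members (red where the size rule was met, heights carry no value) and dotted lines at 2-fold. The lines of P2RX4, ENTPD1 and P2RY13 lie at 1.13, 1.42 and 2.25, beyond the dotted line, and that of P2RY2, at 0.09, lies near the middle of the distribution.

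Several members are neighbours in the genome. P2RX7 and P2RX4 lie next to each other on chromosome 12, with differences of 0.53 and 1.13. P2RY2 lies next to P2RY6 on chromosome 11. P2RY6, a receptor for UDP that is no member, met the size rule as higher: 458.2 and 474.3 in the knock-down pool, against 201.8 and 191.6 in the empty-vector pool (log2 difference 1.17), beside 0.09 for P2RY2. P2RY13 and P2RY14 lie on chromosome 3, both inside the span of MED12L, and the ADP receptor P2RY12 lies beside P2RY13. MED12L, P2RY12 and P2RY14 were not measured. Over the 12 measured genes next to or overlapping a member that are no members themselves, P2RY6 alone met the rule and the median difference was 0.11. The rule was met as higher by 2.44% of all measured genes, whose median was 0.05, and nothing is read from the neighbours' count. P2RY6 is also on a pathway list below that was chosen with earlier results of these data known.

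The start regions of the members differed in base composition. RefSeq start regions (GRCh38.p14, the 250 bases before the start) were found for 8 of the 10 genes, 14 regions in all; P2RY2 and P2RX1 had no entry. Those of the 3 genes that met the size rule and of P2RX7, the neighbour of P2RX4, are shown because they set the CpG-rich and the CpG-poor side by side; of 5 ENTPD1 starts, the one with the most CpG is given. Capitals mark CpG dinucleotides, and each is printed 5′ to 3′ on the strand of its gene.
P2RY13, chr3:151329550-151329799, minus strand: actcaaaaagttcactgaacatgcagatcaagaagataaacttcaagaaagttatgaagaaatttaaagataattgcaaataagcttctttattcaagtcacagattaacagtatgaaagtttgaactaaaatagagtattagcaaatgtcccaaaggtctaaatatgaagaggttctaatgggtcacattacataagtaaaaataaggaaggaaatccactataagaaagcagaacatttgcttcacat
P2RX4, chr12:121209879-121210128, plus strand: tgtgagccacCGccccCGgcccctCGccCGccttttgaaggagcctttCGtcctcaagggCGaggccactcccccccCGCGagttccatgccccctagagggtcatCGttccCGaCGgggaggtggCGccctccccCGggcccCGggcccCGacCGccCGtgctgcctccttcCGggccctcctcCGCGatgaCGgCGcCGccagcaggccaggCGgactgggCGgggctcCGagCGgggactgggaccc
P2RX7, chr12:121132626-121132875, plus strand: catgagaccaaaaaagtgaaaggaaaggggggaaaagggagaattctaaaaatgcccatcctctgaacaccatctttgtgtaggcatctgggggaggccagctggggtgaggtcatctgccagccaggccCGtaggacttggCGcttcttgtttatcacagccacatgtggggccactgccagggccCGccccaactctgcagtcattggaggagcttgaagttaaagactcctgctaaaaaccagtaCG
ENTPD1, chr10:95693935-95694184, plus strand: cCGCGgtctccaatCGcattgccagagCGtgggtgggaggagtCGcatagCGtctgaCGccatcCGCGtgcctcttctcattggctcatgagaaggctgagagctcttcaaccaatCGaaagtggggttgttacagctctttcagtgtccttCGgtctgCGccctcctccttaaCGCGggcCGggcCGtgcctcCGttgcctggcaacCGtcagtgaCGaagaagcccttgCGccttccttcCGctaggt

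The P2RX4 region held 27 CpG and 76.0% G and C, and this ENTPD1 region held 21 CpG and 60.4%. The P2RY13 region held no CpG and 30.0% G and C, and the P2RX7 region 4 CpG and 53.2%. Over 22176 RefSeq start regions of protein-coding genes the medians were 16 CpG and 62.0%. The genes that met the rule thus included both CpG-rich and CpG-free starts. The other 4 ENTPD1 starts held 0 to 5 CpG, and the ADA start held 41. The kB consensus, the site bound by NF-kB, was found on either strand in none of the 14 regions, and in 11.3% of all regions. The core of the PU.1 site, GAGGAA, was found on either strand in 4 of the 14 regions, of P2RY8 (both starts), P2RY11 and P2RY14, and in 23.7% of all regions. These matches are descriptions of letters in these windows and do not overlap each other.

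The other genes of the pathway were listed by role, with earlier results of these data known. Of 93 with a probe set of their own, 66 were measured, 3 met the size rule as higher (P2RY6, IL18 and TXNIP) and none as lower, and the median difference was 0.10. Over all measured genes 2.44% met it as higher and 1.1% as lower, with a median of 0.05, and nothing is read from the list's count. Beside P2RY6, the genes P2RY1, P2RY10 and P2RY12, also listed by symbol, did not reach the brightness limit. P2RX5 was the only measured P2X receptor outside the members, with 692.4 and 589.7 in the knock-down pool, against 610.3 and 578.2 in the empty-vector pool, overlapping at a difference of 0.10. None of the 3 adenosine receptors with a probe set of their own was measured.

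The list of other extracellular nucleotide enzymes holds relatives that do not all act at the cell surface, such as ENTPD4. None of its 9 measured genes met the rule, and their median was 0.10. NT5E, the ectonucleotidase CD73 that takes the AMP made by ENTPD1 on to adenosine, was chosen with its values in view. It was measured on none of its 4 probe sets, and its highest signal on any array was 44.8. ACP3, a phosphatase that can also dephosphorylate extracellular AMP, gave 473.8 and 499.6 in the knock-down pool, against 267.7 and 277.2 in the empty-vector pool (log2 difference 0.80). A second ACP3 probe set, 237030_at, gave 236.8 and 167.1 in the knock-down pool, against 7.6 and 11 in the empty-vector pool; at 2.99 it met the rule, from empty-vector signals far below the limit. ADA2, the adenosine deaminase secreted by monocytic cells, gave 3647.3 and 3454.7 in the knock-down pool, against 2250.4 and 2332.6 in the empty-vector pool. Its difference of 0.63 did not meet the rule. The relatives of ENTPD1 that were measured, named after their values were seen, had smaller differences on their brightest probe sets: ENTPD4 0.10, ENTPD5 -0.28, ENTPD6 0.12 and ENTPD7 -0.21. Another measured ENTPD4 probe set, 1555358_a_at, gave 0.66 without overlap of the pools, and another of ENTPD7, 220153_at, gave 0.02.

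None of 12 measured purine salvage enzymes met the rule (median 0.05), with AMPD3, an AMP deaminase, at 0.45 and NT5C, a cytosolic nucleotidase, at -0.51. The 4 measured nucleoside transporters had a median of -0.15, with SLC28A3 at -0.50 and SLC29A3, whose arrays overlapped, at 0.33. The 8 measured genes of ATP and UDP-glucose release had a median of 0.02. PANX1, a channel that releases ATP, had 557.2 and 533.3 in the knock-down pool, against 987.3 and 794.8 in the empty-vector pool, a difference of -0.68. Of its other measured probe sets, 236372_at shared this direction at -0.82, while 235295_at gave -0.02 and 204715_at gave 0.32. LRRC8A, the essential subunit of the volume-regulated anion channel, had -0.55.

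None of 18 measured genes of the G protein and phospholipase steps met the rule (median 0.11). The largest difference was that of ADCY7, an adenylyl cyclase, at 0.77, although its second probe set gave -0.34; PLCB2, a phospholipase C of blood cells, had 0.66. Among 13 measured partners and outputs of the P2X7 channel, 2 met the rule, both higher, and the median was 0.21. Over all measured genes 2.44% met it as higher, with a median of 0.05. IL18, a cytokine matured by caspase-1, had 1124.6 and 1114.9 in the knock-down pool, against 488.5 and 532.4 in the empty-vector pool (1.11). TXNIP, a thioredoxin inhibitor that binds NLRP3, had 1950.2 and 1933.8 in the knock-down pool, against 862.8 and 968.3 in the empty-vector pool. Its difference was 1.07, with 1.09 and 0.79 on its other probe sets, and it was 0.99 without empty-vector replica 1, just under the limit. Of the 13, 11 had a positive difference and 2 a negative one, beside 55.2% positive over all measured genes. Because the list was chosen with earlier results known, nothing is read from that count. Chosen with their values in view, NLRP3 was at 0.01 and IL1B, the interleukin 1 beta gene, at -0.72. The other measured probe set of each gave -0.08 for NLRP3 (216015_s_at) and only -0.26 for IL1B (205067_at).

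**Figure D4:**
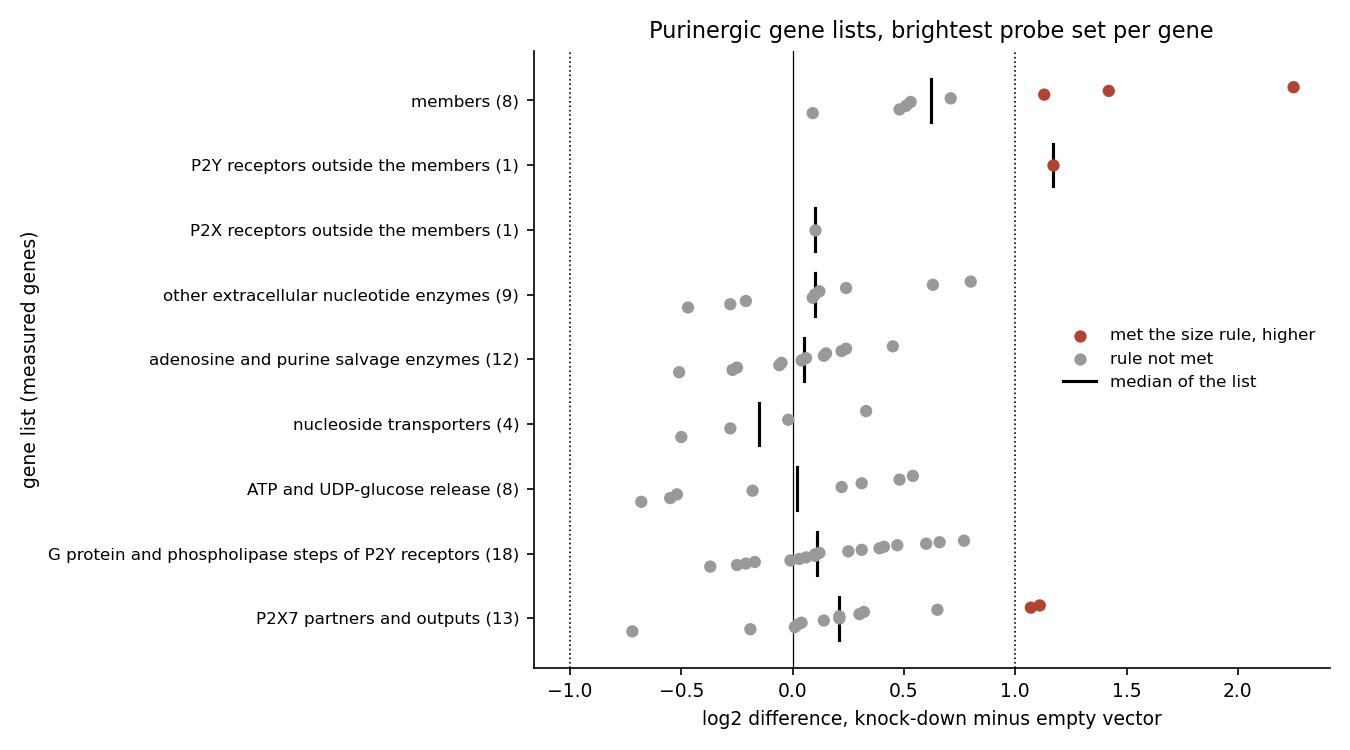
Log2 difference, knock-down minus empty vector (x axis), of each measured gene on its brightest probe set, by list (y axis, number of measured genes in brackets). Red points met the size rule, black bars are list medians and dotted lines mark 2-fold. The members' median lies at 0.62 and those of the lists with 4 or more genes between -0.15 and 0.21.

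All differences are relative to the authors' scaling, which gives each array the same trimmed mean. Scaling each array to a common median instead moved the median of all measured genes to 0.17 and the share of higher among the genes meeting the rule to 81.7%, against 69.0% in the authors' scaling. The members' median was then 0.74, and the same 3 members met the rule.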

How the data were processed

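Gene expression was measured on 4 HG-U133 Plus 2.0 arrays, 2 per RNA pool. Signal intensities were made by the authors with GCOS, per the submitters' processing notes, and the deposited table holds 1 linear intensity per probe set. The 2% trimmed mean was 500.07 on every array, which shows a scaling of each array to a common level. Detection calls were not analysed here, and the number of arrays limits the precision.

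Of 54675 probe sets, 62 AFFX controls were left out; of the rest, 41091 had 1 gene symbol in the platform annotation, 1801 several and 11721 none. The entrez IDs of 41037 matched the RefSeq gene table (GRCh38.p14), which gave current symbols and neighbours. The pseudocount of 18 is the mean 25th percentile of signal. The median SD between arrays of a pool was 0.07 (knock-down) and 0.06 (empty vector) on the log2 scale.

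Because the arrays of a pool share their RNA, no test was made. The members and the pathway and marker lists were chosen with earlier results of these data known. Named genes are the members, PIR, list genes that met the size rule or else the 2 largest differences of a list, and neighbours that met the rule. NT5E, ENTPD4, ENTPD5, ENTPD6, ENTPD7, NLRP3, IL1B, CASP1, AK1 and GJA1 are named outside it, chosen after their values were seen, and genes given without a value are named as list members or neighbours. Alternatives changed the pseudocount, brightness limit, scaling, fold limit, margin over array pairs, choice of probe set, and left out each array. Python 3.11.15, pandas 2.3.3, numpy 2.4.6 and matplotlib 3.10.9 were used.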

Additional observations from a re-analysis of the deposited data

How the results depend on the processing

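ENTPD1 and P2RX4 met the size rule as higher under all 13 alternatives, and P2RY13 under 12; no member met it as lower under any. The count of members was 3 in the main setting, 2 with the 75th percentile as brightness limit (without P2RY13), and 4 with the 1.5-fold limit (with P2RX1). Member probe sets meeting it numbered 5 in the main setting, 3 with the stricter brightness limit, and 5 to 6 with 1 array left out. The members' median was 0.62; it was 0.53 with no brightness limit, 0.74 with median scaling, and 0.57 to 0.72 with 1 array left out. The PIR difference of -4.15 was -4.40 with no pseudocount, -3.59 with 4 times the pseudocount, -4.03 with median scaling and -4.20 to -4.08 with 1 array left out.

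Of the other pathway genes, 3 were higher and 0 lower in the main setting. With no brightness limit 5 were higher (AK1 and GJA1 added), and with the 1.5-fold limit 6 were higher (ACP3, ADA2 and CASP1 added) and 1 lower (IL1B). With the mean over all probe sets 1 was lower (NLRP3), TXNIP no longer met the rule and ACP3 did. That mean takes in signals below the brightness limit. For NLRP3 it includes 216016_at, at 3.3 and 0.9 in the knock-down pool, against 21.4 and 16.8 in the empty-vector pool. The measured NLRP3 probe sets gave 0.01 and -0.08. For ACP3 it includes 237030_at, whose empty-vector signals were 7.6 and 11. With 1 array left out 2 to 3 were higher and 0 to 1 lower (SLC29A2, without empty-vector replica 2).

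Over all genes, 251 were higher and 113 lower in the main setting. They were 142 and 84 at the 75th percentile, 448 and 414 with no brightness limit, 718 and 391 with the 1.5-fold limit, 164 and 77 with 4 times the pseudocount and 340 and 76 with median scaling, and 275 and 177 without empty-vector replica 1. The cause of these shifts was not tested. No paired analysis was possible because the replica numbers mark arrays of 1 RNA pool and the comparison carries no test.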

Other observations

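Among genes of the pathway lists that did not reach the brightness limit, 2 had large differences, chosen after their values were seen. AK1, a cytosolic adenylate kinase, had 78.4 and 98.9 in the knock-down pool, against 9.5 and 16.5 in the empty-vector pool (log2 difference 1.79), and its second probe set had -0.17. GJA1, the connexin 43 gene, had 62.4 and 82.4 in the knock-down pool, against 15.5 and 8.6 in the empty-vector pool (1.59). For both genes all signals lay below the limit, so the values give no reliable fold. For AK1 they give no shared direction either, as its probe sets differed in sign and the second overlapped between the pools.

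CASP1, the protease that matures IL-18, was also chosen after its values were seen. Its 5 probe sets were all higher in the knock-down pool. From the brightest to the dimmest, the log2 differences were 0.65, 0.53, 0.52, 0.66 and 1.46. The brightest, 209970_x_at, gave 3243.0 and 3222.9 in the knock-down pool, against 2070.5 and 2027.7 in the empty-vector pool (0.65). Its suffix, shared by 211366_x_at, marks probes that may also match other transcripts. The dimmest, 206011_at, gave 525.4 and 444.6 in the knock-down pool, against 168.1 and 160.3 in the empty-vector pool. It alone met the size rule, at 1.46.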
